A study of Homo sapiens with 8 samples.

Results

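Small nucleolar RNA (snoRNA) host long non-coding RNAs, GAS5 among them, were followed through M1, M2, M3 and M4, a series of human mammary epithelial cell lines made as a model of breast cancer progression. The group was a list of 10 gene symbols, GAS5, SNHG1, SNHG5, SNHG6, SNHG7, SNHG8, SNHG12, SNHG15, SNHG16 and ZFAS1, matched to the Ensembl identifiers of a table of 56632 genes. Of the 10, 9 had a row with counts and passed the filter on low counts, and SNHG8 was not analysed here. Polyadenylated RNA had been sequenced from 2 libraries of each line, labelled as biological duplicates, 8 libraries in all.

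M1 was MCF10A, an immortalised line that does not form tumours. M2 was MCF10AT1k.cl2, which carries an introduced activated HRAS gene and was taken from a xenograft of the transformed cells. M3 was MCF10Ca1h and M4 was MCF10CA1a.cl1, carcinoma-forming lines derived from xenografts of the HRAS-bearing cells. Each of the 4 lines is 1 derivative of a single genetic background, so a difference between lines is a difference between those derivatives. All 4 were grown as acini in Matrigel for 8 days in medium with 2% horse serum, insulin, cholera toxin and hydrocortisone. EGF was given at 10 ng/ml to M1 and M2 and left out for M3 and M4, so for every comparison of M3 or M4 with M1 or M2, the line and the absence of EGF cannot be told apart.

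snoRNA host genes carry snoRNAs inside their introns. When the host transcript is spliced, the snoRNAs are trimmed from the removed introns and join proteins. In these particles the snoRNAs guide chemical modification of ribosomal RNA. The spliced exons leave the nucleus as a polyadenylated RNA with no long reading frame. Many such hosts, like the genes of ribosomal proteins, begin with a C followed by a run of pyrimidines, known as a 5′ terminal oligopyrimidine (TOP) start, which couples translation to growth signals. Because short reading frames in the spliced RNA are translated, several host RNAs are turned over by nonsense-mediated decay. GAS5 was named for its accumulation in growth-arrested cells, and its spliced RNA is known to bind the glucocorticoid receptor.

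The start sites are shown first because the members differed in their RefSeq starts. RefSeq promoters (GRCh38.p14) were found for 8 of the 10 members, and for the 7 of these with counts, windows of 60 bases, from 40 before to 20 after the annotated start, were located by exact match in GRCh37, the build of the counts. In each line the capitals mark the letters TATAA between 40 and 16 bases before the start, where present, and the unbroken run of C and T that opens the transcript, where present.
SNHG5 (chr6:86388432-86388491, minus strand): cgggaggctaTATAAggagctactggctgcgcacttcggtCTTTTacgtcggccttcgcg
ZFAS1 (chr20:47895139-47895198, plus strand): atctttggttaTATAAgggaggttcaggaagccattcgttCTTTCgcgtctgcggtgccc
SNHG12 (chr1:28908366-28908425, minus strand): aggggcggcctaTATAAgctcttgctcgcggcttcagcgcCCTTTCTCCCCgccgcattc
SNHG7 (chr9:139622617-139622676, minus strand): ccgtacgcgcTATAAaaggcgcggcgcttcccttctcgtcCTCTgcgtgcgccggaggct
SNHG1 (chr11:62623338-62623397, minus strand): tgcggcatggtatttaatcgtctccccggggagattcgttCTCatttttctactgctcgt
SNHG16 (chr17:74553806-74553865, plus strand): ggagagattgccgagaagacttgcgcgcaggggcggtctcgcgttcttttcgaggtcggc

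A start of C followed by at least 4 pyrimidines was found in 3 members, SNHG5, ZFAS1 and SNHG12, of the 8 with a RefSeq promoter, and in 4.07% of the 35116 promoters in that table. TATAA lay in the upstream window of 5 of the 8 members and of 3.91% of all promoters. Both were present in 3 members and in 0.0940% of all promoters. The RefSeq start of GAS5 held neither, but 50 of its 91 GENCODE transcripts began at another base, where the run was CTTTTC. The start shared by most GENCODE transcripts was looked up for GAS5 alone, so the other members are described by their RefSeq start only.
GAS5 (chr1:173837108-173837167, minus strand, start shared by 50 GENCODE transcripts): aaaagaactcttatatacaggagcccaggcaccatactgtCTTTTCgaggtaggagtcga
These matches describe annotated letters and do not show which start was used in these cells, since counts per gene do not resolve starts.

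RefSeq places 11 snoRNAs within GAS5, 9 within SNHG1, 4 within SNHG12, 3 each within SNHG16 and ZFAS1, 2 each within SNHG5 and SNHG7, and 1 each within SNHG6, SNHG8 and SNHG15. The 3 snoRNAs of ZFAS1 are C/D box snoRNAs, the class that guides methylation of ribosomal RNA. They are printed from GRCh37 with box C (NTGATGA) and box D (CTGA) in capitals, because they show what the ZFAS1 introns carry beside the exons that were counted.
SNORD12C (chr20:47895477-47895565): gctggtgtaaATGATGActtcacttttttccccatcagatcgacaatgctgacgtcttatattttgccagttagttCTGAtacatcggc
SNORD12B (chr20:47896856-47896946): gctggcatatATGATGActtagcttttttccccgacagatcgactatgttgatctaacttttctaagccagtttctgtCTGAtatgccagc
SNORD12 (chr20:47897220-47897309): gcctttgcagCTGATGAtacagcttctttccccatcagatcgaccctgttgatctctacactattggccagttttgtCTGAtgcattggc
Rows were looked up for the snoRNAs that the GENCODE annotation used here places inside members, which are fewer than those of RefSeq. The annotation held 6, the 3 above with SNORD78 of GAS5, SNORD99 of SNHG12 and SNORD1B of SNHG16. All 6 had a row and were listed at 0 in the 8 libraries. Of 1434 rows matched to a snoRNA of that annotation, 1335 were at 0 in every library and none reached 10 counts in every library. Selection for polyadenylated RNA is not made to capture snoRNAs, so the values that follow are for the spliced hosts and not for the snoRNAs.

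Library totals ran from 69669945 to 107350288 expected counts, and single members had between 1159 and 37678 counts in a library. Levels are given as CPM (counts scaled to the same TMM-adjusted library size). Basal and simple-epithelial markers were present in all 8 libraries, with KRT5 between 2837 and 9190 CPM, while KRT19 did not exceed 3.72 CPM. Their levels shifted in M4 against M1, where 4 of the 10 epithelial markers were called higher (KRT8, KRT18, EPCAM and ITGA6) and 3 lower (KRT5, KRT14 and TP63). Of all genes tested, 9.48% were called higher and 11.2% lower in that comparison. Of 10 markers of fibroblasts, leukocytes, endothelium and adipocytes in the table, 3 to 6 had no count in a given library, COL1A2, CD3E and ADIPOQ were at 0 in all 8, and the summed level ran from 11.7 to 59.2 CPM. HRAS stood at 154 and 139 CPM in M1, 160 and 154 CPM in M2, 269 and 327 CPM in M3 and 335 and 352 CPM in M4, so its total count did not separate M2 from M1 (log2 fold change 0.10 ± 0.15 SE, adjusted p = 0.74, edgeR).

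The assignment of 2 libraries was in doubt. The library labelled M1 replicate 2 in GEO matches the column given to M2 in the study's own expression table, and the library labelled M2 replicate 1 matches a column given to M1. The 2 matches were correlations of centred log2 levels over 202 genes, at r = 0.98 and 0.97. The GEO labels were kept. Under them the M2 libraries were the most alike pair, with an SD of log2 ratios of 0.228 over 13495 genes against 0.609 for the M1 pair, 0.546 for the M3 pair and 0.471 for the M4 pair. Across the M1 and M2 libraries, pairs labelled as different lines had an SD between 0.672 and 0.706. After the exchange, the pairs treated as the same line would have SDs of 0.700 for M1 and 0.679 for M2. The M2 pair still differed beyond counting noise, with a chi-square of 6.95 per degree of freedom. That was far below the 283 of the M1 pair, the 361 of the M3 pair and the 136 of the M4 pair. Each call of a member is given with the 2 libraries exchanged as well, and the gene lists by their counts or named genes.

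**Figure D1:**
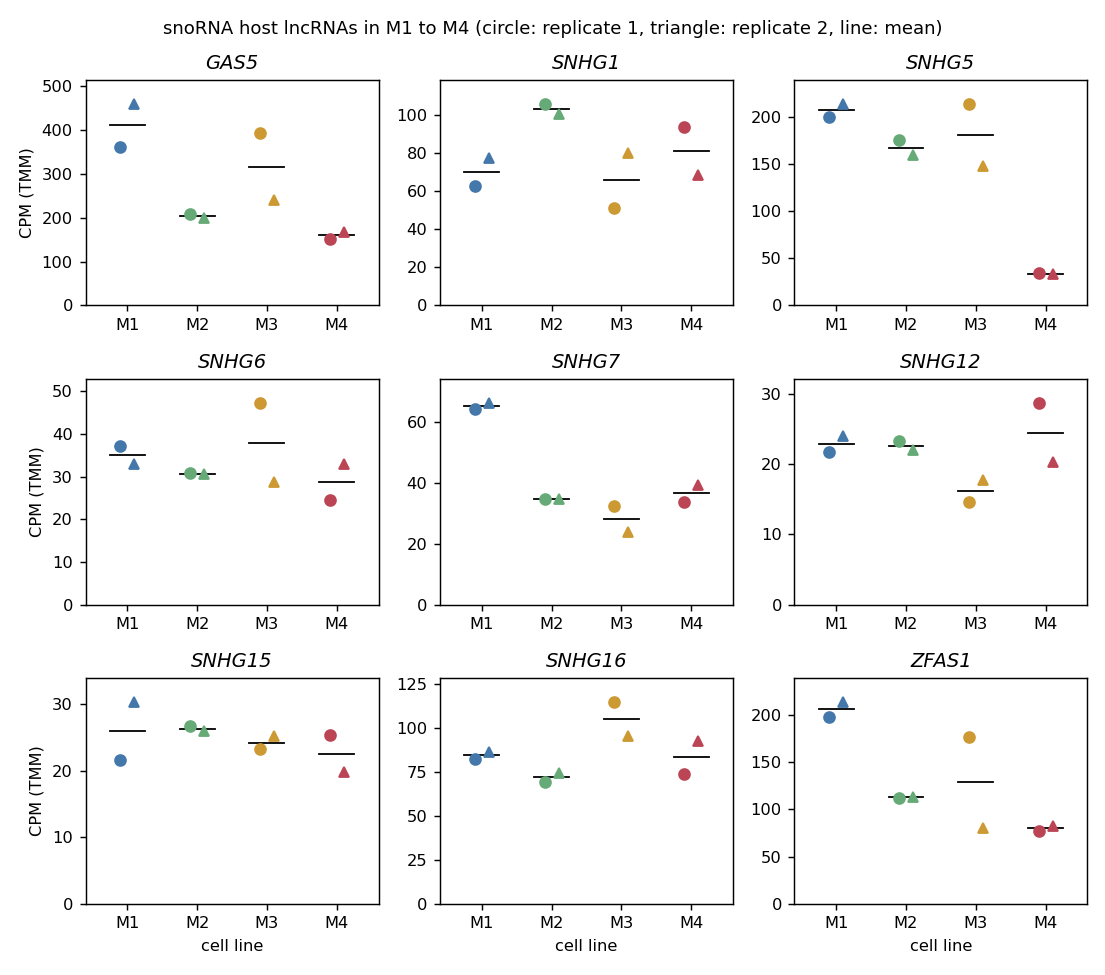
Level of the 9 measured members in each library, in CPM after TMM scaling (linear y axis from 0), by cell line (x axis), with circles for replicate 1, triangles for replicate 2 and a line at the mean. SNHG5 in M4 stands at 34.1 and 33.1 CPM against 148 CPM or more in the 6 other libraries, and the M3 libraries lie far apart for GAS5 and ZFAS1.

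SNHG5 (ENSG00000203875, chr6:86360209-86388650, minus strand), host of the C/D box snoRNAs SNORD50A and SNORD50B, showed the largest change among the members. Its levels were 200.05 and 214 CPM in M1, 176 and 160 CPM in M2, 214 and 148 CPM in M3, and 34.1 and 33.1 CPM in M4. Both M4 libraries lay below the other 6, with no overlap. SNHG5 was 6.16-fold lower in M4 than in M1 (log2 fold change -2.62 ± 0.19 SE, adjusted p = 0.00022). It was 4.99-fold lower in M4 than in M2 (log2 fold change -2.32 ± 0.19 SE, adjusted p = 0.00057) and 5.38-fold lower than in M3 (log2 fold change -2.43 ± 0.19 SE, adjusted p = 0.0012). M2 and M3 did not pass the test against M1, at log2 fold changes of -0.30 and -0.20. The fall in M4 against M1 passed in all 18 alternatives, between -2.66 and -2.48, and with the 2 doubtful libraries exchanged it was -2.48 (adjusted p = 0.0035). In that setting M4 stood at -2.48 against M2 (adjusted p = 0.0033) and at -2.43 against M3 (adjusted p = 0.0077).

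GAS5 (ENSG00000234741, chr1:173827697-173838020, minus strand) was the most abundant member per length in every line. It stood at 362 and 460 CPM in M1, 209 and 199.9 CPM in M2, 394 and 239 CPM in M3, and 152 and 167 CPM in M4. Both M4 libraries lay below all others, while the M3 libraries were as far apart as one in the M1 range and one near M2. GAS5 was 2.57-fold lower in M4 than in M1 (log2 fold change -1.36 ± 0.24 SE, adjusted p = 0.0053). Against M3 the M4 libraries were lower by a log2 fold change of -0.99 ± 0.24 SE (adjusted p = 0.031), which passed the test but not the 2-fold minimum. M2 was at a log2 fold change of -1.01 ± 0.24 SE against M1, with an adjusted p of 0.057 that did not pass, although the libraries of the lines did not overlap. It was called in 6 of the 18 alternatives, DESeq2 among them. With the doubtful libraries exchanged, M4 against M1 was at -0.84 (adjusted p = 0.27) and M2 against M1 at 0.21 (adjusted p = 1.00), so the GAS5 call rests on the GEO labels. With both of those libraries left out, M4 against M1 was at -1.18 (adjusted p = 0.048).

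ZFAS1 (ENSG00000177410, chr20:47894715-47916137, plus strand), whose annotated gene span begins 248 bases from that of the zinc finger gene ZNFX1 on the opposite strand, was lowest in M4 as well. Its levels were 198 and 213 CPM in M1, 112 and 113 CPM in M2, 177 and 80.3 CPM in M3, and 77.3 and 82.4 CPM in M4. Both M1 libraries were above the other 6, and one M3 library fell among those of M4. ZFAS1 was 2.58-fold lower in M4 than in M1 (log2 fold change -1.37 ± 0.32 SE, adjusted p = 0.015). This call was lost at log2 fold changes of similar size without M1 replicate 2 (-1.31, adjusted p = 0.052), without M4 replicate 1 (-1.31, adjusted p = 0.084), without M4 replicate 2 (-1.39, adjusted p = 0.076) and without both doubtful libraries (-1.31, adjusted p = 0.080). With the doubtful libraries exchanged it was lost at -0.96 (adjusted p = 0.22). Against M1, M2 stood at -0.87 (adjusted p = 0.15) and M3 at -0.68 (adjusted p = 0.16), neither of which passed, but without M3 replicate 1 the M3 value was -1.35 (adjusted p = 0.0041).

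SNHG7 (ENSG00000233016, chr9:139615818-139622636, minus strand), host of the H/ACA box snoRNAs SNORA17A and SNORA17B, was highest in the libraries labelled M1. It stood at 64.2 and 66.1 CPM in M1, 34.7 and 34.5 CPM in M2, 32.3 and 23.7 CPM in M3, and 33.8 and 39.4 CPM in M4. The 2 M1 libraries were above the 6 others with no overlap. SNHG7 was 2.33-fold lower in M3 than in M1 (log2 fold change -1.22 ± 0.18 SE, adjusted p = 0.0037). M2 (-0.91 ± 0.17 SE, adjusted p = 0.029) and M4 (-0.83 ± 0.17 SE, adjusted p = 0.010) passed the test but not the 2-fold minimum. With the doubtful libraries exchanged, M2 was at 0.02 (adjusted p = 1.00), M3 at -0.82 (adjusted p = 0.32) and M4 at -0.44 (adjusted p = 0.51), so all 3 differences rest on the GEO labels. Exons of SNHG7 share 1482 bases with DIPK1B on the opposite strand. The labels name a TruSeq mRNA kit by a catalogue number used for a strand-marking kit, but no source used here says whether counting used the strand. Without it, reads of the 2 genes there cannot be told apart.

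**Figure D2:**
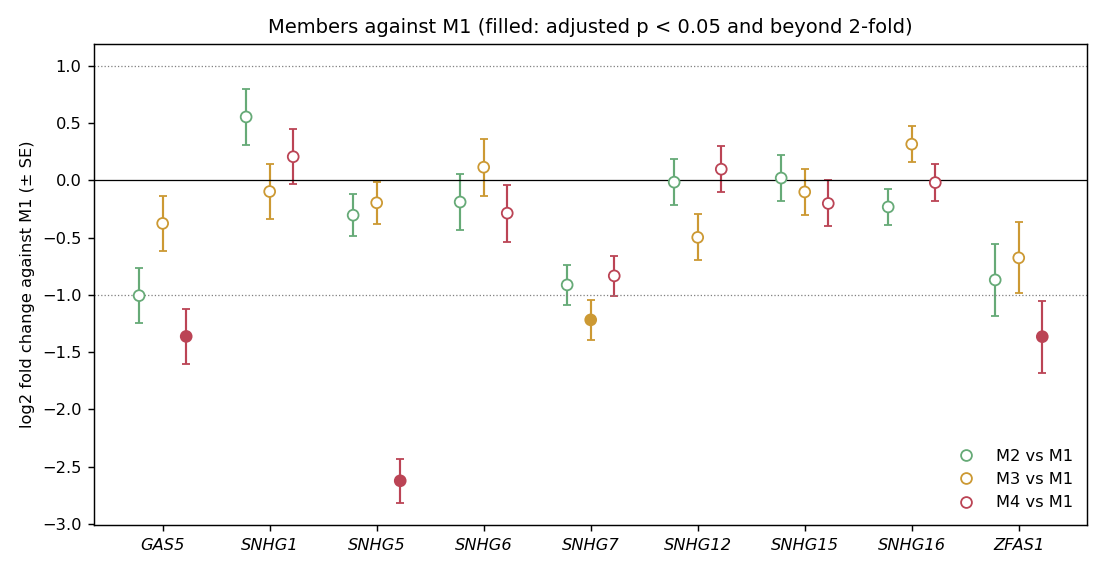
Log2 fold change of each member against M1 (y axis, points with SE) for M2, M3 and M4, filled where the adjusted p was under 0.05 and the change beyond 2-fold, with dotted lines at 2-fold. SNHG5, GAS5 and ZFAS1 are filled for M4 and SNHG7 for M3, and no member is filled above 0.

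The other 5 members, SNHG1, SNHG6, SNHG12, SNHG15 and SNHG16, passed in none of the 6 comparisons. SNHG1, host of 8 C/D box snoRNAs and divergent from the amino acid transporter gene SLC3A2 with starts 51 bases apart, stood at 62.9 and 77.4 CPM in M1, 106 and 100.2 CPM in M2, 51.2 and 80.0 CPM in M3, and 93.6 and 68.3 CPM in M4. Its M2 libraries were above all others, at a log2 fold change of 0.55 ± 0.24 SE against M1 (adjusted p = 0.22). SNHG12 was at 14.6 and 17.8 CPM in M3, below the 6 other libraries, which ran from 20.3 to 28.7 CPM, with M3 against M1 at -0.50 ± 0.20 SE (adjusted p = 0.12) and M4 against M3 at 0.60 ± 0.20 SE (adjusted p = 0.080). SNHG16, host of SNORD1A, SNORD1B and SNORD1C, was highest in M3, at 115 and 95.6 CPM against 69.5 to 92.9 CPM elsewhere, with M3 against M2 at 0.55 ± 0.16 SE (adjusted p = 0.094). SNHG15 ran from 19.8 to 30.3 CPM and SNHG6 from 24.5 to 47.2 CPM, with the M1 and M3 libraries overlapping for both. SNHG6 shares 1488 exonic bases with MCMDC2 on the opposite strand, so its count carries the same doubt as that of SNHG7. For these 5 genes the M4 against M1 differences were between -0.29 and 0.21, with SEs of 0.16 to 0.25. A p that missed the threshold with 2 libraries a line does not show that these 5 were equal between lines.

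Over the 9 members, 0 were called in M2 against M1, where 3.37% of the 18431 genes tested were called. One was called in M3 against M1 (13.5% of genes, and 5.51% called lower), and 3 in M4 against M1 (20.7% of genes, and 11.2% called lower). None was called in M3 against M2 (4.15% of genes), 1 in M4 against M2 (13.9%, and 6.94% lower) and 1 in M4 against M3 (10.3%, and 6.3% lower). All called members were lower in the line named first. With the adjusted p alone and no minimum fold, the counts were 1 in M2 against M1, 4 in M4 against M1 and 2 in M4 against M3, beside 4.83%, 31.4% and 16.8% of all genes. Beside the 0 for M2 against M1, 3 members had an unadjusted p under 0.05 and DESeq2 called 1, and beside the 0 for M3 against M2, 4 members had one and DESeq2 called 0. By the 2-fold rule, with the CPM ratio of M4 to M1 under 0.5 in each replicate, the members were again SNHG5 (0.170 and 0.154), ZFAS1 (0.390 and 0.386) and GAS5 (0.420 and 0.364), and 10.7% of the 29419 genes with a count met it. The median log2 fold change of the members in M4 against M1 was -0.29, beside -0.02 for all genes tested, and the members ran from -2.62 to 0.21.

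Per kb of the canonical transcript, GAS5 was highest in every line, at 535 ± 89.8 CPM per kb (SD, n = 2) in M1 and 208 ± 13.8 CPM per kb in M4. SNHG16 came next in all 4 lines, at 170 ± 5.38 CPM per kb in M1 and 167 ± 27.1 CPM per kb in M4. SNHG5 followed in M1, M2 and M3, and SNHG1 overtook it in M4. SNHG12 and SNHG15 were the lowest, and their ranges overlapped in M3. The order below GAS5 depended on the length used. With the union of annotated exons, SNHG5 was last in M4, while GAS5 remained first in all 4 lines. The SNHG5 union spans 12604 bases against 1316 for its canonical transcript. Both lengths came from a later GENCODE release than the paper names for the counts, so the transcripts counted may have had other lengths.

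The spread between the M3 replicates was shared by several members and by ribosomal protein genes that host snoRNAs. M3 replicate 1 exceeded replicate 2 for GAS5, SNHG5, SNHG6, SNHG7, SNHG16 and ZFAS1 and fell below it for SNHG1, SNHG12 and SNHG15. Over 19 ribosomal protein hosts, the geometric mean level was 2214 CPM in M3 replicate 1 and 1333 CPM in replicate 2, between 1800 and 2587 CPM in M1 and M2, and 1085 and 1195 CPM in M4. Across the 8 libraries the log2 level of ZFAS1 followed this mean with Pearson's r = 0.95, GAS5 with 0.89 and SNHG5 with 0.87, while SNHG1 was at -0.31 and SNHG12 at -0.23. The 8 points are 2 libraries from each of 4 lines, scaled together, so these correlations are descriptions. What sets the M3 libraries apart was not tested.

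Among the 36 pairs of members, GAS5 and ZFAS1 were the most alike over the 8 libraries (r = 0.92), then GAS5 and SNHG5 (0.78) and SNHG5 and ZFAS1 (0.74). SNHG1 and SNHG16 were the most opposed (r = -0.87), followed by SNHG12 and SNHG16 (-0.86). Of 11450 genes with at least 100 counts in every library, 5 coding genes had the highest correlation of log2 CPM with GAS5. They were MR1 (r = 0.99), MTA3 (0.98), HSCB (0.98), BFSP1 (0.98) and TBC1D9B (0.98). The correlation does not measure the size of a change, as TBC1D9B ran only from 246 to 298 CPM and GAS5 from 152 to 460 CPM.

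**Figure D3:**
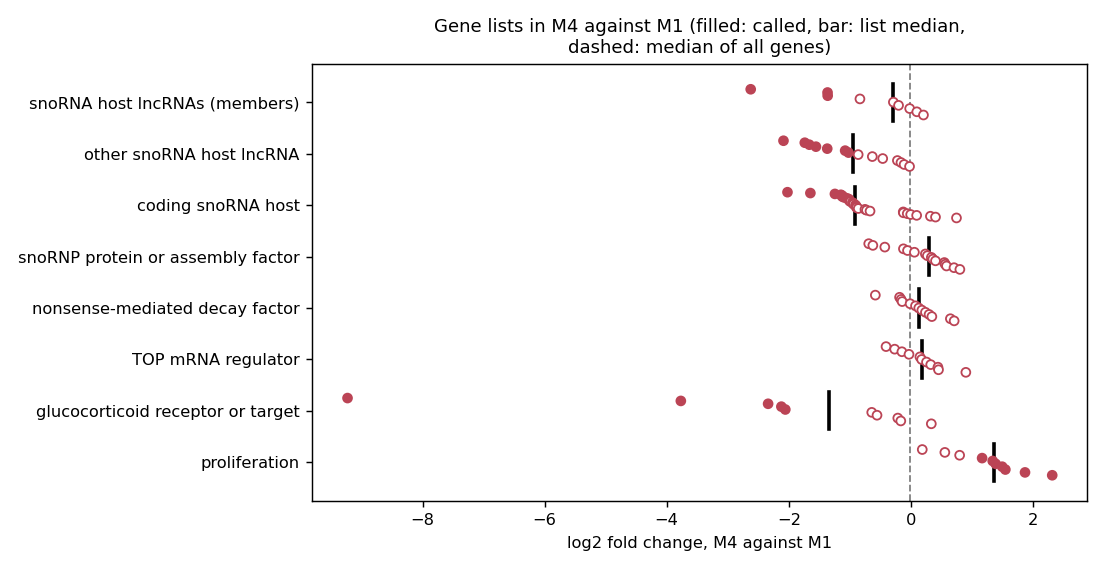
Log2 fold change in M4 against M1 (x axis) of each gene tested, by list (rows), filled where called, with a bar at the list median and a dashed line at the median of all genes (-0.02). Coding snoRNA hosts have a median of -0.91 and the other host lncRNAs one of -0.94, whereas snoRNP proteins sit near 0.30.

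Other snoRNA host lncRNAs that were called in M4 against M1 were lower there too. Of 16 in the table, 14 were tested and 7 were called lower in M4 against M1, with none higher, and their median log2 fold change was -0.94 beside -0.02 for all genes, of which 11.2% were called lower. The log2 fold change was -2.09 for SNHG19 (adjusted p = 0.0012), -1.66 for EPB41L4A-AS1 (adjusted p = 0.0013) and -1.56 for DANCR (adjusted p = 0.0015). In M3 against M1, 6 of 14 were called, again lower, beside 5.51% of all genes called lower, and they included SNHG14, at 20.9 and 16.5 CPM in M1, 19.3 and 17.8 CPM in M2, 0.01 and 0.07 CPM in M3 and 19.5 and 17.3 CPM in M4. SNHG25 was called lower in M4 against M3 and SNHG14 higher. With the doubtful libraries exchanged, 3 of the 14 were called in M4 against M1, SNHG19, DANCR and SNHG25, and 2 in M3 against M1, SNHG14 and DANCR. SNHG14 was still called in M4 against M3, while SNHG25 was not (-1.54, adjusted p = 0.10).

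Coding snoRNA hosts, mostly ribosomal protein genes, were lower in M4 where they were called. Of 31, 11 were called lower in M4 against M1 and none higher, beside 11.2% of all genes called lower. An adjusted p under 0.05 was found for 21, beside 31.4% of all genes. The median log2 fold change was -0.91, beside -0.02 for all genes. RPL13A, host of several C/D box snoRNAs, stood at 7249 and 8340 CPM in M1 and 1789 and 2050 CPM in M4 (log2 fold change -2.02 ± 0.26 SE, adjusted p = 0.0016). RPL3 was at -1.24 (adjusted p = 0.012) and RPL23A at -1.01 (adjusted p = 0.0093). RPL13A was also called lower in M4 against M2 (-1.27, adjusted p = 0.013) and in M4 against M3 (-1.11, adjusted p = 0.027). None of the 31 was called in M2 or M3 against M1, beside 3.37% and 13.5% of all genes. In each, 25 of the 31 had a negative value and 6 an unadjusted p under 0.05, and DESeq2 called 0 and 1. The number called in M4 against M1 was 2 with the doubtful libraries exchanged, when RPL13A stood at -1.64 (adjusted p = 0.048), at -1.74 against M2 (adjusted p = 0.037) and, no longer called, at -1.11 against M3 (adjusted p = 0.15). It was 2 without M1 replicate 2 or without either M4 replicate.

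Genes that work on snoRNAs or on host RNA turnover were not called in M4 against M1, where 20.7% of all genes tested were called. The 16 snoRNP proteins and assembly factors had a median log2 fold change of 0.30 in M4 against M1, beside -0.02 for all genes. Of the 16, 5 passed the test below 2-fold, beside 31.4% of all genes with an adjusted p under 0.05 at any fold. In M4 against M1, 5 of the 16 had a negative value, and NOP56 and DKC1 also belong to the coding host list. FBL, the methyltransferase of C/D box snoRNPs, was lower in M4 than in M2 (log2 fold change -1.07, adjusted p = 0.0059), as was RUVBL2, an assembly ATPase (-1.11, adjusted p = 0.0026). FBL was at 271 and 261 CPM in M1 and 152 and 178 CPM in M4. RUVBL2 was at 200 and 203 CPM in M1 and 131 and 131 CPM in M4. None of the 13 nonsense-mediated decay factors was called in M4 against M1 (median 0.13), and SMG1, the kinase of the pathway, was called higher in M4 against M3 (1.06, adjusted p = 0.036). None of 11 regulators of TOP mRNAs was called in M4 against M1, while EIF4EBP1, a repressor of cap-dependent translation, was higher in M3 than in M1 (1.32, adjusted p = 0.0085). In M4 against M1, 9 snoRNP genes, 4 decay factors and 2 TOP regulators had an unadjusted p under 0.05, and DESeq2 called 0 in each list. With the doubtful libraries exchanged, FBL (-0.89, adjusted p = 0.058), RUVBL2 (-0.88, adjusted p = 0.060), SMG1 (1.06, adjusted p = 0.069) and EIF4EBP1 (1.08, adjusted p = 0.13) were not called in those comparisons.

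The glucocorticoid receptor list was included because GAS5 is known to bind that receptor, and hydrocortisone was in the medium of all 4 lines. The receptor gene NR3C1 stood at a log2 fold change of 0.33 in M4 against M1 (adjusted p = 0.37), while 5 of 10 list genes, all known targets, were called lower, beside 11.2% of all genes, and the same number with the doubtful libraries exchanged. The list median was -1.35, beside -0.02 for all genes. The log2 fold change was -2.06 for SGK1, a kinase (adjusted p = 0.0017), -2.34 for the transcription factor KLF9 (adjusted p = 0.0024) and -2.12 for the receptor co-chaperone FKBP5 (adjusted p = 0.0038). ZBTB16 went from 34.8 and 15.9 CPM in M1 to 0.06 and 0.01 CPM in M4, and TSC22D3 from 197 and 52.0 CPM to 11.04 and 7.16 CPM. The list median and GAS5 stood at -0.46 and -1.01 in M2 against M1, and at -0.65 and -0.38 in M3 against M1. They were at -0.60 and 0.63 in M3 against M2, -1.28 and -0.36 in M4 against M2, and -0.87 and -0.99 in M4 against M3. With the doubtful libraries exchanged, GAS5 was at 0.21 in M2 against M1 and at -1.05 in M4 against M2. Whether the fall of GAS5 and that of these targets are related was not tested.

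Proliferation genes went the other way. Of 10, 6 were called higher in M2, 8 in M3 and 7 in M4 against M1, with none lower, beside 2.26%, 8.02% and 9.48% of all genes called higher. MCM2, a replicative helicase subunit, rose by 1.34 on the log2 scale in M4 (adjusted p = 0.0011), the mitotic cyclin CCNB1 by 1.17 (adjusted p = 0.0036) and RRM2 by 1.87 (adjusted p = 0.0021), and 0 of the 10 were called in M2, M3 or M4 against M1 with the doubtful libraries exchanged. Of the 10 non-epithelial markers, 5 were tested in M4 against M1, with a median log2 fold change of -0.82. Among these 5, 1 was called higher, beside 9.48% of all genes, and 1 lower, beside 11.2%. CD68, one of the non-epithelial markers, stood at 51.4 and 39.0 CPM in M4 against 4.03 to 25.1 CPM in the 6 other libraries, beside the lower GAS5, SNHG5 and ZFAS1. The keratin and TP63 shifts given above stood beside the same results, and the part of these markers in them was not tested. In bulk RNA, fewer cells of a kind and less RNA per cell cannot be told apart.

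The coding genes whose annotated gene span begins nearest to that of each member were compared in the same way. Of 9 such neighbours, 5 were tested and edgeR called none in the 6 comparisons, beside 3.37% to 20.7% of all genes. From 0 to 2 had an unadjusted p under 0.05, while DESeq2 called 1 in M2 against M1 and 1 in M4 against M2. ZNFX1, next to ZFAS1, was at a log2 fold change of 0.23 ± 0.21 SE in M4 against M1, and SLC3A2, next to SNHG1, at -0.07 ± 0.32 SE. SYNCRIP, an RNA-binding protein gene and the nearest coding neighbour of SNHG5, was at 0.33 ± 0.16 SE where SNHG5 was at -2.62. ZBTB37, which begins 93 bases from the main GAS5 start, stood between 1.05 and 1.91 CPM in all libraries and at -0.02 ± 0.32 SE in M4 against M1. CYGB, next to SNHG16, was at -0.57 ± 1.02 SE, and TCF24, LCN10, RAB42 and MYO1G were too low to test.

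**Figure D4:**
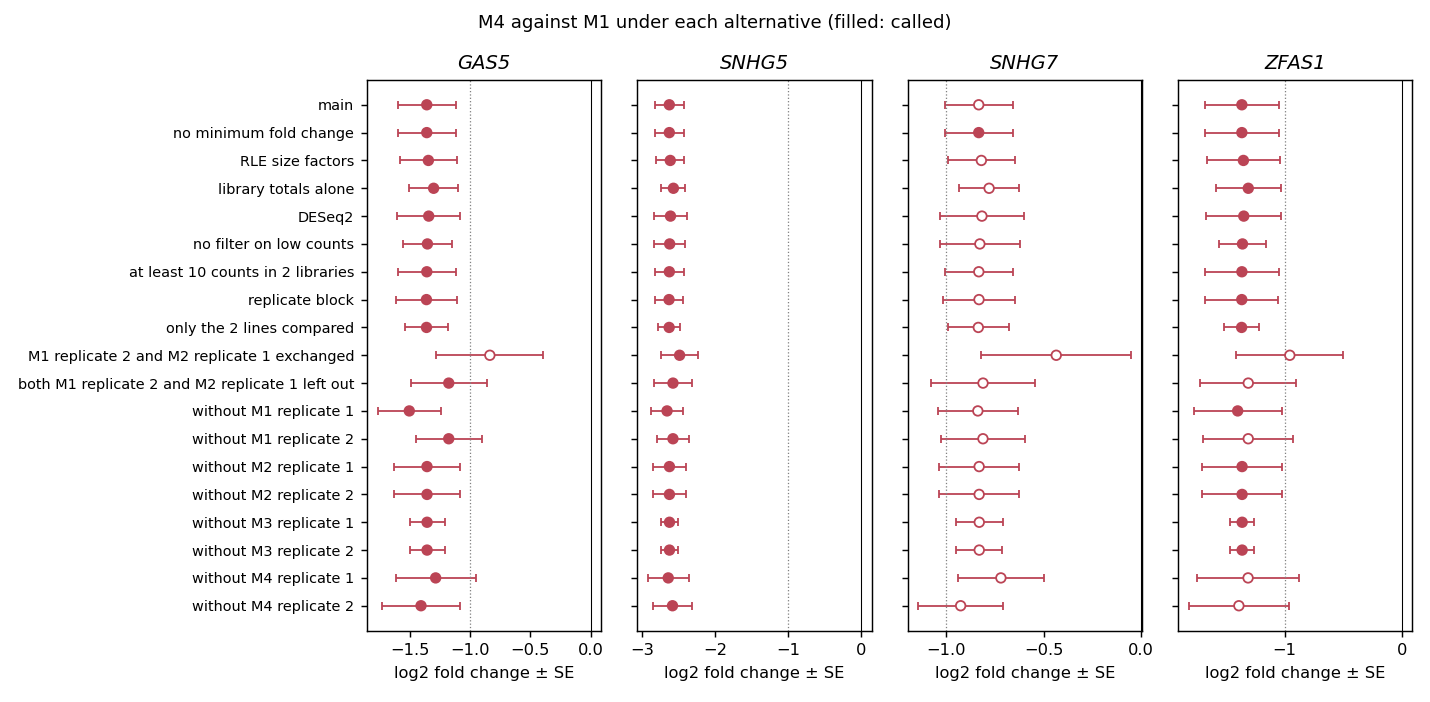
Log2 fold change in M4 against M1 with SE (x axis) for GAS5, SNHG5, SNHG7 and ZFAS1 under the reported settings and each of 18 alternatives (rows), filled where called. SNHG5 is filled in all rows, GAS5 in all but the exchange of 2 libraries, and ZFAS1 loses its call in 5 rows.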

How the data were processed

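The deposited table held expected counts per gene, which the authors estimated with RSEM after trimming with Trimmomatic and alignment with STAR to hg19 (GRCh37). Tool versions and the use of strand in counting were not given in the sources used here. The expected counts were rounded, and 12.8% had not been whole. Members, gene lists and tests were chosen with earlier results of these data known. Gene names, lengths and exon overlaps came from a GENCODE annotation on GRCh37, of a later release than the paper names for counting.

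Genes passing filterByExpr (18431) were tested with edgeR 4.0.16 (TMM scaling, robust quasi-likelihood F test, 1 coefficient per line over all 8 libraries, 2 libraries per line), with Benjamini-Hochberg adjustment over all of them. The call rule was an adjusted p under 0.05 with a log2 fold change beyond 1. The SE was taken as the log2 fold change over the square root of F. The p-values measure the spread between 2 libraries a line, which may in part be technical. The fits were tested on simulated data. Alternatives were other scalings, DESeq2 1.42.0, other filters, a replicate block, fits of 2 lines alone, no minimum fold, and libraries exchanged or left out. Lists were described by counts and medians, without a set test. The genes named were the members, up to 4 called genes per list by smallest adjusted p, those behind counts of 5 or fewer, the coding neighbours, HRAS and the 5 genes most like GAS5. CD68 was chosen after its values were seen. No column lacked a sample. A gene of the coding host list that the naming rule covers is not reported here.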

Additional observations from a re-analysis of the deposited data

Results flagged for a closer look

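SNHG5 and GAS5 changed against M1 by different amounts in M3 and in M4, by the test of M4 against M3 itself, which is the difference of those changes. For SNHG5 the difference was -2.43 ± 0.19 SE on the log2 scale (adjusted p = 0.0012), with M3 at -0.20 and M4 at -2.62 against M1. For GAS5 it was -0.99 ± 0.24 SE (adjusted p = 0.031), with M3 at -0.38 and M4 at -1.36. The GAS5 difference was -0.59 (adjusted p = 0.086) without M3 replicate 1 and -1.31 (0.0097) without M3 replicate 2. Exchanging the doubtful libraries, which are of neither line, left it at -0.99 with an adjusted p of 0.23.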

How the results depend on the processing

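Of 972 values of single members under 18 alternatives, 953 kept their direction where called and their side of the threshold, 7 lost a call, 12 gained one and 0 called values reversed, while 40 values that were not called changed sign. In M2 against M1, where 0 members were called, 1 was called, SNHG7 with no minimum fold change and GAS5 with library totals alone, with DESeq2, with no filter on low counts and with only the 2 lines compared. With M1 replicate 2 and M2 replicate 1 exchanged, 0 members were called in M3 against M1, 1 in M4 against M1 and 1 by the 2-fold rule, in place of 1, 3 and 3. In that setting 0 genes of the whole table were called in M2 against M1, beside 622 with the GEO labels, and 1559 in M4 against M1, beside 3821. With no minimum fold change, 2 members were called in M4 against M3 in place of 1. Leaving out 1 library at a time gave 0 to 1 members in M2 against M1, 1 to 2 in M3 against M1 and 1 to 3 in M4 against M3, the upper ends without an M3 library. The cause of these changes was not tested. Coding hosts called in M4 against M1 numbered 11, and 2 to 14 with 1 library left out, and other host lncRNAs 7, and 3 to 7.

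The correlations of replicate deviations between lines ran from -0.09 to 0.22, the highest being that of M3 with M4. The replicate numbers were not taken to pair the libraries in the reported fit. In a fit with a replicate block, members called were 0, 1 and 3 in M2, M3 and M4 against M1, 0 in M3 against M2, and 1 each in M4 against M2 and M4 against M3, as without it.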
